A study of Oryza sativa Japonica Group with 18 samples.

Results

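In leaves of rice seedlings, 52 genes were almost without transcript in normal growth and stood among the moderately to highly expressed genes after cold. They were chosen from the measured values, as the rows with a rice locus ID whose mean FPKM (fragments scaled to gene length and to library size) was at most 2 in each of 3 control groups and at least 20 in each of 3 cold groups. Of 38610 rows in the table, 35679 carry such an ID, and 55 of these met both limits. Of the 55, 3 were left out by name, namely DREB1A, DREB1H and TIFY11A, which left 52. Because the cold and control values chose the genes, their difference between the conditions is given as a description, with no test.

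Cold changes the transcription of leaf cells through several linked routes. Chilling opens calcium channels, and the calcium signal is ended by pumps that remove calcium from the cytosol. Transcription factors of the CBF/DREB1 family are made soon after chilling begins and bind a short element in the promoters of genes that protect cells against dehydration and freezing, a route best known from Arabidopsis. WRKY transcription factors, known mostly from defence, and TIFY (JAZ) proteins, which repress jasmonate responses, also respond to stress. Among the 52 genes, 6 could be given a name from these families, and 46 are known here only by their locus ID.

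Seedlings at the 3-leaf stage were of 3 kinds, wild-type rice (WT), transgenic plants that overexpress OsERF096 (OX) and plants with an RNA interference construct against the same gene (RNAi), all grown with 14 h of light and 10 h of dark. OsERF096 is by its name a transcription factor of the ethylene response factor family. Leaf RNA of each line was sequenced under normal conditions (control) and after 12 h at 4 °C (cold), with 3 libraries in each of the 6 groups. The labels give neither the promoter that drives either construct, nor the number of independent transgenic lines, nor the time of day of sampling, so cold and hour of harvest cannot be told apart. Nor do they state that replicate libraries are of different plants. All p-values below are therefore set against differences among libraries that may be technical.

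The 18 libraries had between 19597 and 20939 genes at an FPKM of at least 1. Absolute read depth is unknown, because FPKM values hold no read totals. The counting error of very low values therefore could not be computed here. Relative depth was estimated roughly, from ratios of low values between libraries, with 26 to 61 values in support of each estimate. It was 1.86 times the median in RNAi control replicate 1 and 0.853 to 1.37 times in the other libraries. The part of depth in values near 0 was not tested. Libraries of a group correlated at 0.915 to 0.988 on the log2(FPKM + 1) scale, and identical pairs numbered 0. WT control replicate 2 had the lowest mean correlation with its group, 0.920, and WT control replicate 1 the next lowest, 0.948. All 7 leaf photosynthesis genes examined were present, at a summed 24538 to 62012 FPKM per library. The 5 seed storage genes summed to at most 5.72 FPKM, with Os02g0249800 and Os02g0268300 at 0 in all 18 libraries. The 3 secondary wall genes summed to between 10.3 and 248 FPKM per library in WT control, where replicate 2 was the low library. OsERF096's own level was not analysed here, and the transgenic labels could not be checked against it.

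Nearly silent genes that became abundant were rare. At or below 2 FPKM in all 3 control groups lay 17178 rows with a locus ID, and 0.32% of them reached 20 FPKM in all 3 cold groups. Of the same 17178 rows, 451 reached 2 FPKM in each cold group, 179 reached 5 and 105 reached 10. Staying at or below 2 FPKM in the cold as well were 16065 rows. The opposite pattern, at least 20 FPKM in every control group and at most 2 in every cold group, was shown by 0 rows with a locus ID. Taken line by line, the same limits were met by 83 rows in WT, 128 in OX and 147 in RNAi.

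**Figure D1:**
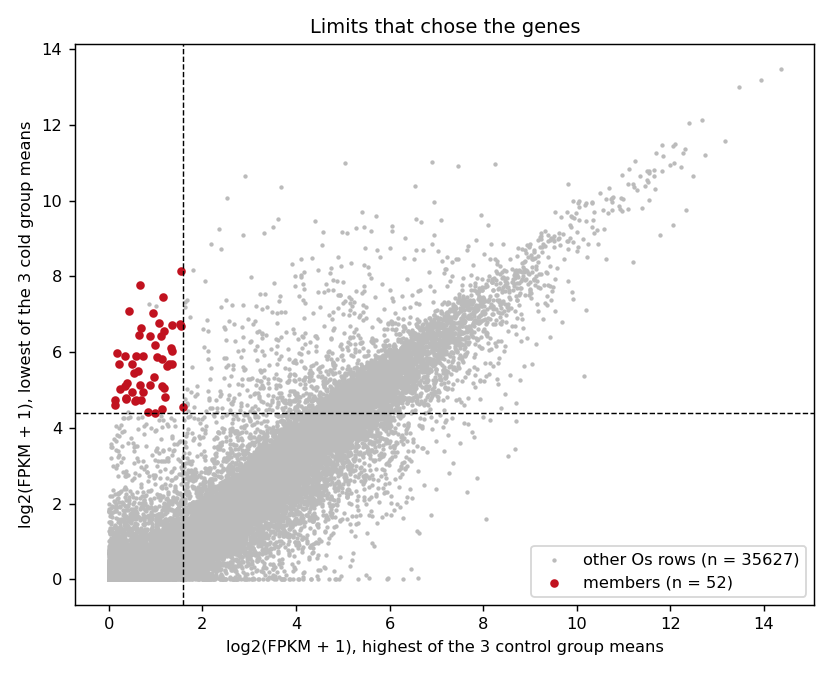
Each point is a row with a locus ID, placed by its highest control group mean (x axis) and its lowest cold group mean (y axis), both as log2(FPKM + 1), with dashed lines at the limits of 2 and 20 FPKM. The 52 genes (red, called members in the key) fill the upper left corner, and the other 35627 rows (grey) lie mostly below it along the diagonal.

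The limits cut through a continuous range of values. Just inside the control limit were Os06g0215900, with a highest control group mean of 1.99 FPKM, and Os11g0151400, with 1.92 FPKM. Just outside it were Os08g0108100, at 2.03 FPKM, and Os02g0548700, at 2.09 FPKM, although the lowest cold group mean of the latter was 146 FPKM. Just inside the cold limit were Os06g0708400, with a lowest cold group mean of 20.1 FPKM, and Os02g0540700, with 20.5 FPKM. Just outside it were Os12g0592900, at 18.9 FPKM, and Os09g0482800, at 18.7 FPKM.

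As a group, the 52 genes moved from a trace of the transcript pool to a visible part of it. They held 0.00485% ± 0.00205 (SD, n = 3 here and below) of the summed FPKM in WT control and 0.625% ± 0.0370 in WT cold. In OX the share was 0.00391% ± 0.00151 in control and 0.745% ± 0.203 in cold. In RNAi it was 0.00442% ± 0.00412 in control and 0.886% ± 0.0785 in cold. Single genes had means of 22.1 to 415 FPKM over the 9 cold libraries, with a median of 64.8 FPKM, against 0.0731 to 1.44 FPKM over the 9 control libraries, with a median of 0.599 FPKM. In cold leaves 9 of the genes ranked among the 1000 most abundant rows in WT, 13 in OX and 18 in RNAi.

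On the log2(FPKM + 1) scale, which understates the change of low genes, the median difference between cold and control was 5.31 in WT, with a range of 3.29 to 7.96. In OX it was 5.57, with a range of 3.65 to 8.76, and in RNAi it was 5.68, with a range of 3.87 to 8.54. Over all genes tested the medians were −0.22, −0.18 and −0.16. These values restate how the genes were chosen. In bulk leaf RNA, expression in fewer cells and less RNA per cell cannot be told apart.

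Silence before cold was seldom complete. Of 468 single control values, 51 were 0 and 26 were above 2 FPKM. At 0 in at least 1 control library were 22 genes, in at least 5 libraries 3 genes (Os02g0624300, Os09g0457900 and Os12g0472366), and in all 9 libraries 0 genes. The highest control value of any of them was 5.47 FPKM, for Os01g0699600 in RNAi control replicate 1. That library held 11 of the 26 values above 2 FPKM, while every other control library held between 0 and 4. Its summed FPKM over the 52 genes was 67.1, against 12.8 and 17.2 in the other RNAi control libraries.

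**Figure D2:**
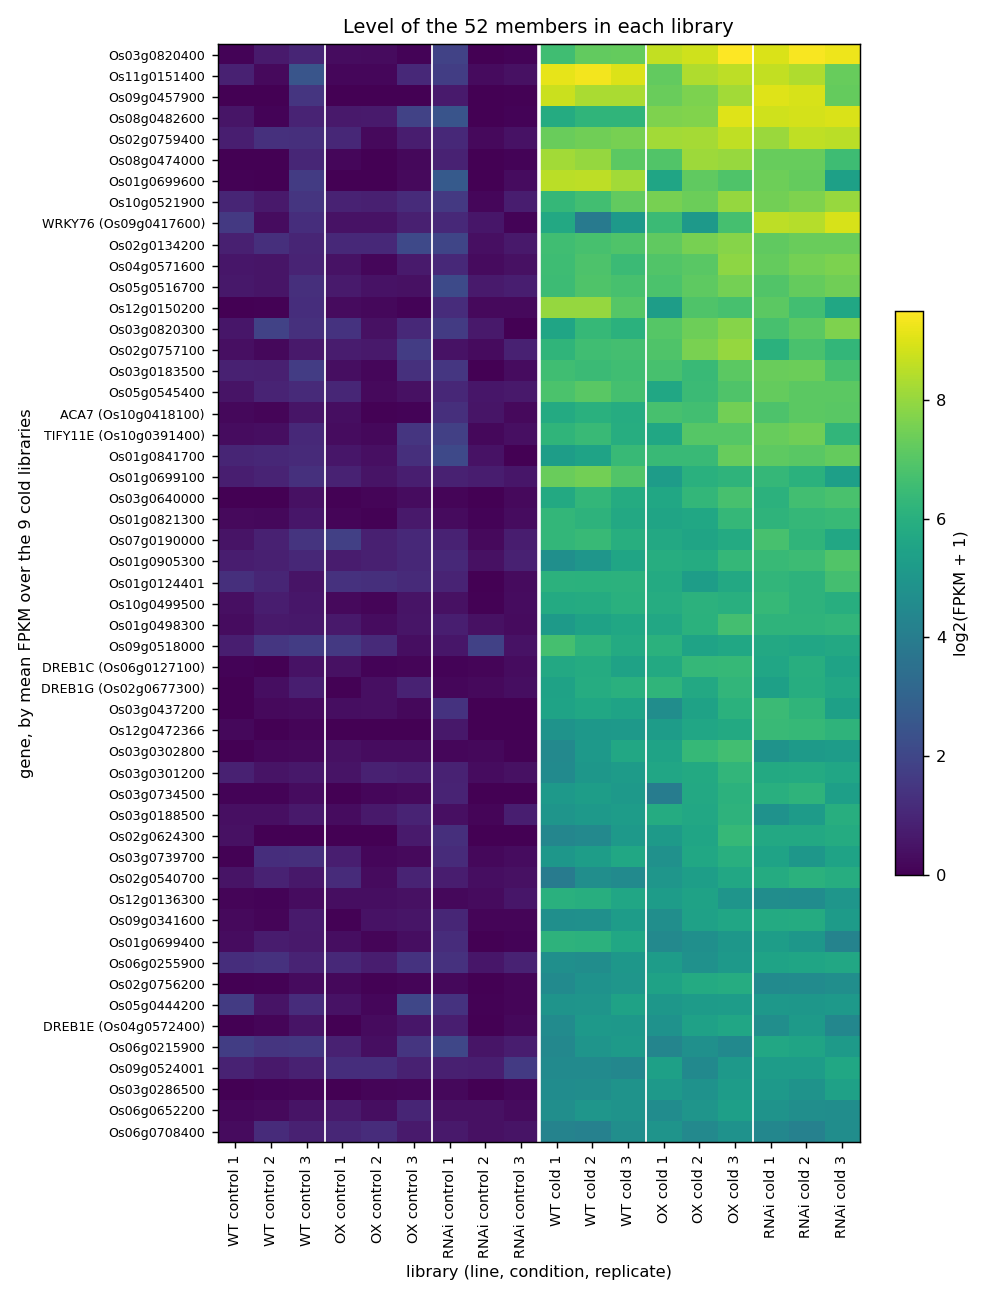
Colour gives log2(FPKM + 1) of each of the 52 genes (rows) in each of the 18 libraries (columns, by group and replicate). The 9 control columns are dark, for values near 0, with RNAi control replicate 1 the brightest of the RNAi controls, and every gene is brighter in all 9 cold columns.

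Transcription factors of the CBF/DREB1 family were represented by DREB1C, DREB1E and DREB1G, which stood near one another in level. For each of them the lines overlapped in the cold. DREB1C (Os06g0127100, chromosome 6) had at most 0.381 FPKM in the control libraries. In cold it had 52.4, 56.2 and 43.0 FPKM in WT, 53.4, 79.0 and 80.4 in OX, and 47.5, 60.3 and 45.0 in RNAi. The groups overlapped, with OX reaching highest.

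DREB1G (Os02g0677300, chromosome 2) had at most 0.858 FPKM before cold. Its cold values were 42.9, 57.1 and 63.9 FPKM in WT, 74.0, 52.1 and 75.5 in OX, and 41.3, 60.0 and 50.3 in RNAi. DREB1E (Os04g0572400, chromosome 4) was the lowest of these factors, with 22.7, 33.5 and 32.7 FPKM in cold WT, 27.4, 41.7 and 48.0 in cold OX, and 24.5, 35.1 and 19.8 in cold RNAi. For both genes all 3 lines overlapped in the cold.

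None of the 3 DREB1 genes passed the test between lines in the cold in the fit of all libraries. The test was limma's moderated test on log2(FPKM + 1) over all 23175 genes with at least 1 FPKM in at least 3 libraries, with Benjamini-Hochberg adjustment and a threshold of 0.05. OX minus WT was 0.47 ± 0.19 (SE) on the log2 scale for DREB1C, with an adjusted p of 0.113 by limma. That difference passed without OX cold replicate 1 (0.655, adjusted p = 0.0394 by limma) and with library weights (adjusted p = 0.0397). For DREB1E OX minus WT was 0.37 ± 0.27, and for DREB1G 0.29 ± 0.24. RNAi minus WT was 0.01 ± 0.19 for DREB1C, −0.17 ± 0.27 for DREB1E and −0.11 ± 0.24 for DREB1G.

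WRKY76 (Os09g0417600, chromosome 9), a transcription factor known in rice as a repressor of defence genes whose overexpression has been linked to cold tolerance, differed most between the lines. Its control values ran from 0.0792 to 1.97 FPKM. In cold it had 52.0, 13.5 and 34.0 FPKM in WT, 88.6, 33.2 and 102 in OX, and 373, 347 and 486 in RNAi. Every RNAi library was above every library of the other lines, while WT and OX overlapped by replicate 2 of OX. RNAi exceeded WT by 3.73 ± 0.47 on the log2 scale (adjusted p = 8.74e-05 by limma) and OX was below RNAi by a difference of −2.55 ± 0.47 (adjusted p = 0.00525). OX minus WT was 1.19 ± 0.47 and did not pass (adjusted p = 0.11 by limma), but passed without OX cold replicate 2 (adjusted p = 0.0349) and with library weights (adjusted p = 0.0129). The 13.5 FPKM in WT cold replicate 2 was also the lowest cold value of any of the 52 genes.

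TIFY11E (Os10g0391400, chromosome 10) belongs to the TIFY proteins, repressors that are degraded when jasmonate is perceived. Before cold it had between 0.154 and 2.48 FPKM. In cold it had 72.2, 84.5 and 58.9 FPKM in WT, 49.0, 127 and 126 in OX, and 153, 172 and 75.8 in RNAi. Libraries of OX and RNAi spread widely, and all 3 lines overlapped. OX minus WT was 0.37 ± 0.47 and RNAi minus WT 0.82 ± 0.47 on the log2 scale, with adjusted p of 0.654 and 0.213 by limma.

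ACA7 (Os10g0418100, chromosome 10) is by its name a calcium-transporting ATPase of the autoinhibited family, whose members pump calcium out of the cytosol. It had at most 1.40 FPKM in the control libraries. In cold it had 55.1, 63.3 and 57.5 FPKM in WT, 106, 97.7 and 174 in OX, and 114, 135 and 133 in RNAi. The WT libraries were close together and below every library of both transgenic lines. OX exceeded WT by 1.04 ± 0.24 (adjusted p = 0.0102) and RNAi exceeded WT by 1.10 ± 0.24 (adjusted p = 0.0037 by limma). When each library was left out in turn, 1 of them ended the call in OX, with an adjusted p of 0.0542, and none ended it in RNAi. With 0.1 in place of 1 in log2(FPKM + 1), neither call passed in the fit of all 18 libraries (adjusted p = 0.196 and 0.118 by limma).

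**Figure D3:**
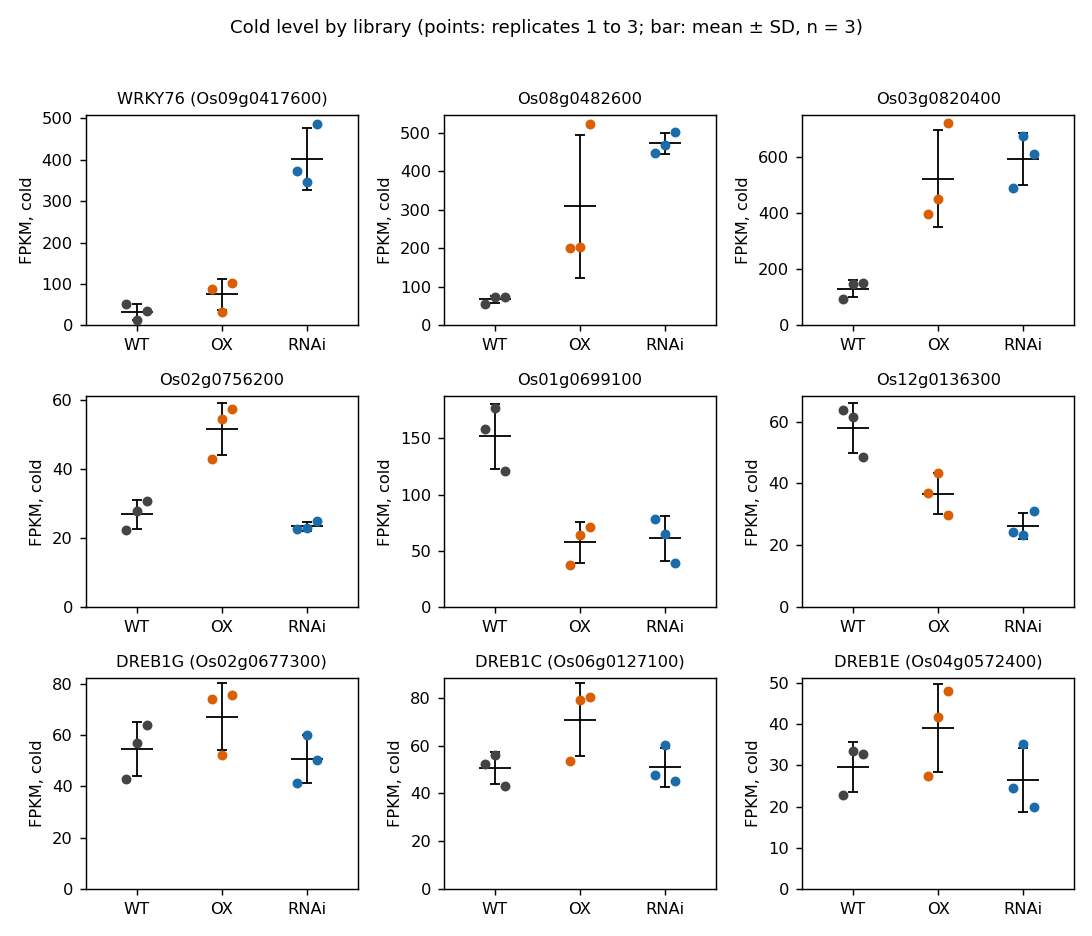
FPKM after cold (y axis, linear from 0) is shown for 9 genes in each line (x axis), with points for single libraries and bars for the mean ± SD of 3. WRKY76 has its RNAi libraries (347 to 486 FPKM) apart from WT and OX, Os02g0756200 has OX above, Os01g0699100 and Os12g0136300 have WT above, and the 3 DREB1 genes have all lines overlapping.

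Among the most abundant of the 52 genes in cold leaves, several were higher in the transgenic lines than in WT. Os03g0820400 (chromosome 3) had the highest mean, 415 FPKM over the 9 cold libraries, and the highest single value, 719 FPKM. It had 95.4, 147 and 149 FPKM in cold WT, 398, 449 and 719 in cold OX, and 491, 675 and 610 in cold RNAi. The WT libraries did not overlap those of either transgenic line, while OX and RNAi overlapped. OX exceeded WT by 1.97 ± 0.39 (adjusted p = 0.0043) and RNAi exceeded WT by 2.19 ± 0.39 on the log2 scale (adjusted p = 0.00112 by limma). With 0.1 in place of 1 in log2(FPKM + 1), neither difference passed in the fit of all 18 libraries (adjusted p = 0.166 and 0.0822 by limma).

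Os08g0482600 (chromosome 8) showed a like order, with 56.2, 73.7 and 72.9 FPKM in cold WT, 200, 204 and 523 in cold OX, and 448, 467 and 501 in cold RNAi. WT stood below both lines, and replicate 3 of OX was apart from the other OX libraries. The difference from WT was 2.03 ± 0.54 in OX (adjusted p = 0.0233) and 2.80 ± 0.54 in RNAi (adjusted p = 0.00182 by limma). The OX call was lost when any of 3 single libraries was left out, with an adjusted p of up to 0.107. In the control libraries this gene reached 4.49 FPKM, again in RNAi replicate 1.

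Also abundant were Os02g0759400, with a mean of 277 FPKM, Os10g0521900, with 173 FPKM, and Os02g0134200, with 147 FPKM. Os02g0759400 had 158, 174 and 187 FPKM in cold WT and 264 to 380 FPKM in the cold libraries of OX and RNAi. It exceeded WT by 0.89 in OX and by 0.94 ± 0.24 in RNAi on the log2 scale, and passed in both, although leaving out any of 3 single libraries ended the OX call. Os10g0521900 passed in RNAi, at 1.00 ± 0.32 (adjusted p = 0.0282 by limma), and any of 4 libraries left out ended that call. Its difference of OX from WT, 0.92, did not pass in the fit of all libraries and passed in a fit of the 9 cold libraries alone (adjusted p = 0.0267), and OX minus RNAi did not pass. Os02g0134200 had 95.5, 104 and 117 FPKM in cold WT, 143, 184 and 219 in cold OX, and 145, 160 and 159 in cold RNAi. Neither difference from WT passed, at 0.76 ± 0.34 for OX (adjusted p = 0.155) and 0.55 ± 0.34 for RNAi (adjusted p = 0.242 by limma). Both passed in the fit of the 9 cold libraries alone (adjusted p = 0.00988 and 0.0223 by limma).

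Others of the most abundant genes passed in no comparison of lines, and some of them had their highest cold mean in WT. Os11g0151400 (chromosome 11) had 562, 646 and 504 FPKM in cold WT, 148, 325 and 369 in cold OX, and 394, 325 and 156 in cold RNAi. All 3 WT libraries were above all others, yet neither difference passed, at −1.12 ± 0.54 for OX (adjusted p = 0.195) and −1.06 ± 0.54 for RNAi (adjusted p = 0.158 by limma). This gene also had 4.73 FPKM in WT control replicate 3, against at most 0.845 in the other WT control libraries.

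Os09g0457900 (chromosome 9) had 421, 315 and 313 FPKM in cold WT, 160, 198 and 288 in cold OX, and 518, 478 and 152 in cold RNAi. Os08g0474000 (chromosome 8) had 288, 253 and 137 FPKM in cold WT, 120, 271 and 263 in cold OX, and 156, 156 and 92.7 in cold RNAi. For both genes the lines overlapped, and in RNAi replicate 3 was the low library. Neither passed in any comparison of lines.

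Within the cold, lines could be compared by a test, since the choice of the genes used no difference between lines. It did require at least 20 FPKM in each line, so a gene silent in the cold in any line could not be among the 52. All 52 passed the filter on low values through their cold libraries. OX minus WT and RNAi minus WT share the 3 WT cold libraries, and a WT library that is low or high moves both.

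In OX, 12 of the 52 genes (23.1%) were higher than in WT and 3 (5.77%) were lower, while 37 did not pass. Over all 23175 genes tested, 9.49% were higher and 3.38% were lower. The median difference of the 52 genes was 0.35 on the log2 scale, with a range of −1.87 to 2.03, against 0.081 over all genes tested. Leaving out replicate 1 of WT cold took the count of 12 to 4, replicate 2 of WT cold took it to 5 and replicate 3 of OX cold took it to 3. Calls over all genes, in either direction, then also fell from 12.9% to 5.57%, 6.81% and 7.66%. The count of 3 was 1 without either of those WT libraries. Among OX cold libraries, replicate 3 was the highest for 40 of the 52 genes (76.9%), against 27.1% of all genes tested, and replicate 1 the lowest for 37 (71.2% against 44.5%). The 3 secondary wall genes, all measured, summed to 123 to 216 FPKM in cold OX, 67.9 to 124 in cold WT and 28.0 to 77.5 in cold RNAi. Their part in these differences was not tested. With quantile scaling, which shifted the median of all genes by −0.118, 13 of the 52 genes were higher and 3 lower. Calls over all genes tested, in either direction, were then 12.6%, against 12.9%. Of those calls, 54.2% were higher, against 73.7% with the deposited values.

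In RNAi, 18 of the 52 genes (34.6%) were higher than in WT and 3 (5.77%) were lower, while 31 did not pass. Of all genes tested, 15.7% were higher and 11.9% were lower. The median difference was 0.45, with a range of −1.73 to 3.73, against 0.020 over all genes tested. Without WT cold replicate 1, which was the lowest WT cold library for 31 of the 52 genes (59.6%, against 37.1% of all genes tested), the count of 18 was 10, and calls over all genes in either direction were 17.5%, against 27.6%. Between the transgenic lines few genes differed. In OX, 3 of the 52 (5.77%) were higher than in RNAi, against 3.75% of all genes tested, and 2 (3.85%) were lower, against 2.19%. The median of OX minus RNAi was −0.11, against 0.059 over all genes tested, and leaving out OX cold replicate 3 gave −0.315, while leaving out OX cold replicate 1 gave 0.011. With quantile scaling 3 genes were higher and 7 lower, and with median-ratio scaling 3 and 4. Over all genes tested, calls in either direction were then 6.72% and 7.05%, against 5.94%. Of all calls between OX and RNAi, 63.2% were higher with the deposited values, 46.1% with quantile scaling and 44.2% with median-ratio scaling. The count of 3 was 1 without OX cold replicate 2 or 3 or without RNAi cold replicate 1 or 2. Calls over all genes, in either direction, then also fell, to 2.37%, 1.93%, 2.05% and 2.71% in that order. The count of 2 was 1 without either of the same RNAi libraries and 4 without RNAi control replicate 1, where calls over all genes were 5.19%.

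Most of these calls were lost with a smaller pseudocount when the control libraries were in the fit. With 0.1 in place of 1, the fit of all 18 libraries called 1 of the 52 genes between OX and WT, 5 between RNAi and WT and 0 between OX and RNAi, down from 15, 21 and 5. Calls over all genes tested moved little, from 12.9% to 12.3%, from 27.6% to 27.4% and from 5.94% to 5.51%. When only the 9 cold libraries were fitted, 21, 24 and 7 of the 52 genes were called with either pseudocount, and with a pseudocount of 1 so were 17.9%, 33.0% and 9.14% of all genes tested. That fit was added after the data were seen.

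**Figure D4:**
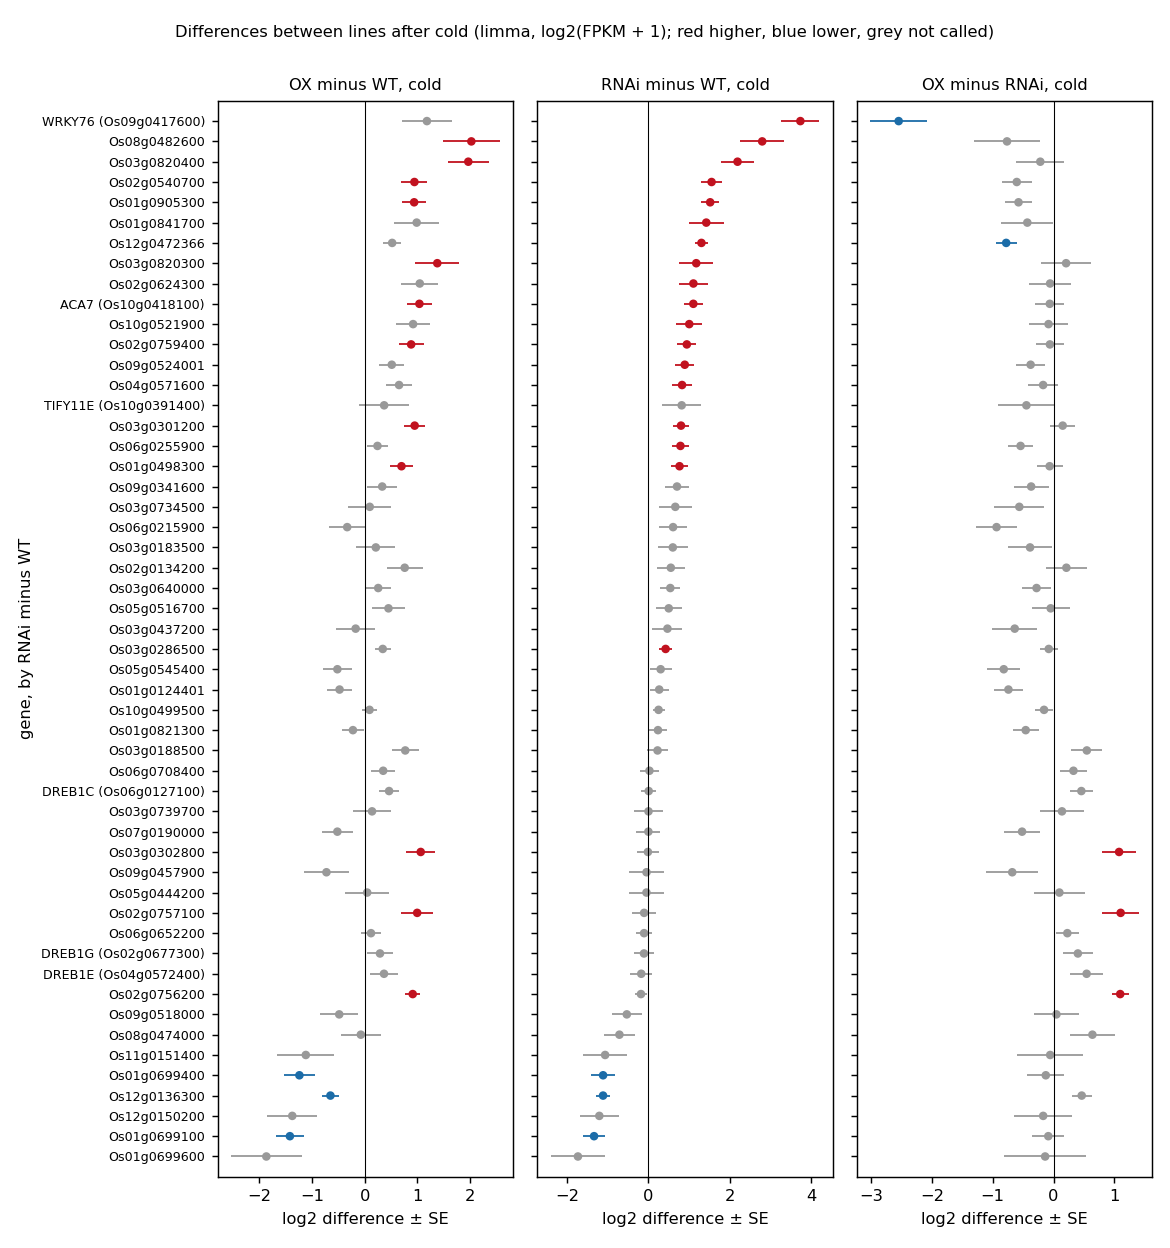
Differences between lines after cold (x axes, log2(FPKM + 1), mean ± SE) are shown for the 52 genes (rows, ordered by RNAi minus WT), with genes called higher in red, called lower in blue and not called in grey. The panels for OX and RNAi share the 3 WT cold libraries, and WRKY76 lies at the top of RNAi minus WT with 3.73.

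Apart from WRKY76, ACA7, Os03g0820400 and Os08g0482600, the genes called higher in RNAi than in WT with the largest differences were Os02g0540700 and Os01g0905300. Os02g0540700 had 14.3, 25.1 and 22.0 FPKM in cold WT, 30.7, 38.8 and 51.1 in cold OX, and 56.4, 65.5 and 59.7 in cold RNAi. The lines did not overlap and were ordered WT, OX, RNAi. RNAi exceeded WT by 1.55 ± 0.25 on the log2 scale (adjusted p = 0.000489 by limma) and OX exceeded WT by 0.95, while OX minus RNAi did not pass. The OX call was lost when any of 3 single libraries was left out. Os01g0905300 had 25.3, 30.7 and 46.7 FPKM in cold WT, 59.9, 56.0 and 80.0 in cold OX, and 83.1, 91.0 and 119 in cold RNAi. Its lines followed the same order without overlap, and RNAi exceeded WT by 1.52 ± 0.23 (adjusted p = 0.000309 by limma).

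Os12g0472366 (chromosome 12) stood above WT in RNAi and also differed between the transgenic lines. It had 28.4, 32.6 and 33.7 FPKM in cold WT, 36.5, 48.3 and 54.1 in cold OX, and 85.5, 80.5 and 71.9 in cold RNAi. RNAi exceeded WT by 1.30 ± 0.17 (adjusted p = 0.00012), and OX minus RNAi was −0.78 ± 0.17 (adjusted p = 0.0154 by limma). The call between OX and RNAi was lost when either of 2 single libraries was left out, with an adjusted p of up to 0.0787.

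A small number of genes were lower in both transgenic lines, and these were the same 3 in each comparison with the shared WT libraries, Os01g0699100, Os01g0699400 and Os12g0136300. Os12g0136300 (chromosome 12) had 63.6, 61.4 and 48.7 FPKM in cold WT, 37.0, 43.3 and 29.9 in cold OX, and 24.4, 23.4 and 30.9 in cold RNAi. WT was above every transgenic library. The difference from WT was −0.65 ± 0.16 in OX (adjusted p = 0.0163) and −1.11 ± 0.16 in RNAi (adjusted p = 0.000263 by limma), and the OX call was lost without any of 3 single libraries. The 2 other genes are neighbours on chromosome 1.

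Called in at least 1 of the 3 comparisons were 24 of the 52 genes (46.2%), against 32.1% of all genes tested, and 28 were called in none. The 21 genes outside the rule for naming had means of 28.2 to 133 FPKM over the cold libraries, with a median of 52.8. Of these 21 genes, 2 were called higher in OX than in WT, 7 were called higher in RNAi than in WT, and 0 were called lower in any comparison. So few genes allow no reading against the shares of all genes given above.

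Some of the 52 genes were neighbours along a chromosome. With at most 3 other rows between them, 9 genes formed 4 runs, on chromosomes 1, 2, 3 and 4. Order was taken from the locus numbers, since no coordinates were used here. How the authors' processing assigned fragments shared by similar neighbouring copies is not given, so levels within a run are uncertain to that extent.

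The run on chromosome 1 held Os01g0699100, Os01g0699400 and Os01g0699600, all highest in cold WT. Os01g0699100 had 158, 177 and 121 FPKM in cold WT, 37.1, 64.3 and 71.0 in cold OX, and 78.6, 65.2 and 39.6 in cold RNAi. Its difference from WT was −1.42 ± 0.26 in OX (adjusted p = 0.00244) and −1.33 ± 0.26 in RNAi (adjusted p = 0.00193 by limma), and both calls were kept whichever library was left out. Os01g0699400 had 69.5, 68.1 and 49.2 FPKM in cold WT, 20.9, 25.3 and 31.2 in cold OX, and 38.2, 31.8 and 17.8 in cold RNAi. The differences were −1.24 ± 0.30 (adjusted p = 0.0144) and −1.11 ± 0.30 (adjusted p = 0.0135 by limma), and each call was lost without any of 3 single libraries. For both genes all WT libraries were above all transgenic ones.

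Os01g0699600, in the same run, had 359, 375 and 290 FPKM in cold WT, 46.4, 143 and 117 in cold OX, and 168, 152 and 40.7 in cold RNAi. The WT libraries again stood above the rest, with a wide spread inside each transgenic line. Neither difference passed, at −1.87 ± 0.67 for OX (adjusted p = 0.0795) and −1.73 ± 0.67 for RNAi (adjusted p = 0.0668 by limma). In a fit of the 9 cold libraries alone both passed, with adjusted p of 0.0339 and 0.0287. Between these genes lies Os01g0699500, which missed the control limit at 2.68 to 4.48 FPKM in the control groups and had cold means of 273 FPKM in WT, 99.98 in OX and 102 in RNAi.

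On chromosome 2, Os02g0756200 and Os02g0757100 stood highest in OX. Os02g0756200 had 22.3, 27.8 and 30.7 FPKM in cold WT, 43.0, 54.5 and 57.4 in cold OX, and 22.5, 22.8 and 25.0 in cold RNAi. All OX libraries were above all others, while WT and RNAi overlapped. OX exceeded WT by 0.92 ± 0.14 (adjusted p = 0.000711) and RNAi by 1.10 ± 0.14 (adjusted p = 0.000196 by limma), and leaving out any single library ended neither call. Both calls were lost with a pseudocount of 0.1 in the fit of all 18 libraries (adjusted p = 0.121 and 0.1 by limma). Os02g0757100 had 74.0, 93.9 and 100.2 FPKM in cold WT, 117, 190 and 256 in cold OX, and 66.1, 109 and 77.6 in cold RNAi, with every OX library above the others. OX exceeded WT by 1.00 ± 0.30 (adjusted p = 0.0406) and RNAi by 1.10 ± 0.30 (adjusted p = 0.0431 by limma), calls that were lost without any of 5 and any of 12 libraries. Os02g0756800, between them, lay above the control limit at 4.07 to 7.23 FPKM and had cold means of 316 FPKM in WT, 471 in OX and 250 in RNAi.

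On chromosome 3, Os03g0820300 lies next to Os03g0820400 with no row between them. Os03g0820300 had 46.6, 80.5 and 65.5 FPKM in cold WT, 126, 165 and 215 in cold OX, and 105, 137 and 203 in cold RNAi, with WT below all other libraries as for its neighbour. OX exceeded WT by 1.38 ± 0.41 (adjusted p = 0.0393) and RNAi exceeded WT by 1.18 ± 0.41 (adjusted p = 0.0458 by limma), and the calls were lost without any of 6 and any of 10 libraries. Neither row beside them met the limits in the cold. Os03g0820100 had group means of 11.6 to 12.5 FPKM in control and 8.32 to 9.73 in cold, and Os03g0820500 had 2.32 to 14.8 in control and 2.02 to 5.44 in cold, where its WT libraries were also below all others.

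On chromosome 4, Os04g0571600 and DREB1E were separated by 3 other rows, each with group means below 20 FPKM. Os04g0571600 had 92.8, 115 and 88.6 FPKM in cold WT, 121, 132 and 234 in cold OX, and 152, 179 and 196 in cold RNAi. RNAi exceeded WT by 0.83 ± 0.25 on the log2 scale (adjusted p = 0.0234 by limma), a call lost without any of 4 single libraries. Of the rows between, Os04g0571800 had 15.5 to 17.0 FPKM in control and 10.3 to 12.5 in cold, and the others stayed below 1 FPKM. Across the genome, chromosome 3 held the most of the 52 genes, 11 or 0.258% of its rows, close to the 0.251% of chromosome 9, which held 5. Chromosomes 7 and 11 held 1 each, 0.037% and 0.044% of their rows.

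**Figure D5:**
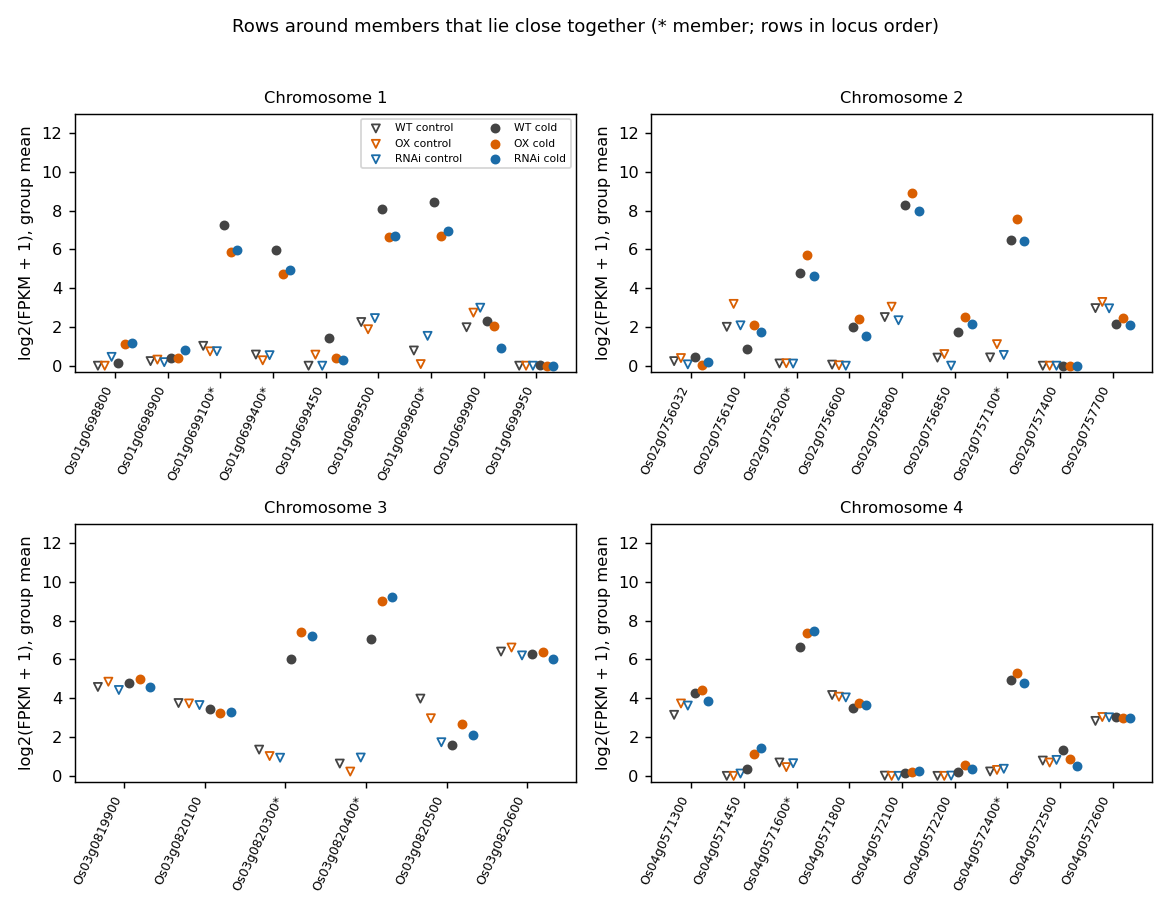
Group means as log2(FPKM + 1) (y axis) are shown for the rows around the 4 runs, in order of locus number (x axis), with open triangles for control, filled circles for cold and an asterisk at each of the 52 genes. In the run on chromosome 1 the WT cold points lie highest, and on chromosome 2 the OX cold points lie highest.

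Replicate libraries of the 52 genes varied more in the cold than those of other genes at like levels. The median over genes of the mean within-group SD was 0.296 on the log2(FPKM + 1) scale, against 0.162 over 4758 other rows with cold levels in the same range. This is given with no test. The widest spread was that of Os01g0699600 and Os12g0150200. Os12g0150200 (chromosome 12) had 252, 255 and 127 FPKM in cold WT, 37.5, 116 and 104 in cold OX, and 137, 97.2 and 49.0 in cold RNAi, and neither difference from WT passed, at −1.37 ± 0.47 and −1.20 ± 0.47 (adjusted p = 0.0682 and 0.0695 by limma).

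The tightest were Os10g0499500, with an SD of 0.14, and Os05g0444200, with 0.15. Os10g0499500 had 55.2, 56.6 and 64.5 FPKM in cold WT, 58.2, 67.5 and 62.7 in cold OX, and 80.4, 70.2 and 60.6 in cold RNAi. Os05g0444200 had 29.2, 29.9 and 43.0 FPKM in cold WT, 31.4, 36.4 and 36.7 in cold OX, and 32.1, 31.8 and 33.2 in cold RNAi. The ratio of the highest to the lowest cold group mean was 1.20 for Os10g0499500 and 1.07 for Os05g0444200.

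The lines' cold levels were close for many genes and far apart for few. The ratio of the highest to the lowest cold group mean had a median of 1.78 over the 52 genes. It was under 1.5 for 14 genes, between 1.5 and 3 for 34 and over 3 for 4, with a range of 1.07 to 12.1. Os05g0444200 and DREB1G lay toward the lower end, and WRKY76 had the ratio of 12.1. The cold mean was highest in RNAi for 29 genes, in OX for 15 and in WT for 8, and lowest in WT for 29. These counts rest on means, and for 28 of the 52 genes no difference between lines passed the test. The same counts were not made over all genes tested. There, 73.7% of calls for OX minus WT and 56.8% of those for RNAi minus WT were higher.

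Os03g0302800 (chromosome 3) was among the genes higher in OX than in both other lines. It had 21.0, 34.1 and 51.2 FPKM in cold WT, 44.9, 81.6 and 97.0 in cold OX, and 28.2, 34.8 and 36.8 in cold RNAi. WT and OX overlapped, and OX was above RNAi in every library. OX exceeded WT by 1.07 ± 0.28 (adjusted p = 0.0192) and RNAi by 1.08 ± 0.28 (adjusted p = 0.0319 by limma), and each call was lost without any of 4 single libraries. In the fit of the 9 cold libraries alone the difference from RNAi did not pass (adjusted p = 0.0665).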

How the data were processed

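RNA sequencing of rice leaves gave 18 libraries, which the sample titles place in 6 groups of 3 with replicate numbers. The authors deposited FPKM values for 38610 rows, and no raw counts were used. The submitters' processing notes list Bowtie 0.12.2. Genome build, annotation, counting tool and filters: not given in the sources used here.

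Deposited values were analysed as log2(FPKM + 1), with no further scaling. The test covered the 23175 rows that reached 1 FPKM in at least 3 libraries. A single model of 6 group means was fitted over all 18 libraries with limma 3.58.1 in R 4.3.3, without covariates and with the variance trend on. Genes were called at an adjusted p under 0.05. The procedure was also run on simulated data with known changes. Alternatives were another pseudocount, filters, scalings, no variance trend, library weights, a replicate block, fewer groups in the fit and leaving out each library.

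The genes, lists and tests were chosen with earlier results of these data known. The table pairs IDs with no names. For 6 of the 52 genes a name from background knowledge was checked against the RefSeq gene table of assembly ASM3414082v1, in which 0 of the 52 locus IDs were found. A name was kept where 1 reference gene alone bears it and that gene's chromosome and place follow the locus number, as it did for 30 of 30 names checked. Named in the text were the 10 genes with the highest cold mean, up to 5 called higher and 5 called lower per comparison, the genes nearest each limit, those with the widest and the tightest replicates, those with a checked name, and neighbouring genes. Genes were neighbours with at most 3 other rows between them. Promoter motifs and protein likeness, planned for these genes, were not run.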

Additional observations from a re-analysis of the deposited data

How the results depend on the processing

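Counts of called genes moved with several settings. With a pseudocount of 0.1 in the fit of 18 libraries, OX minus WT called 0 genes higher and 1 lower, RNAi minus WT called 3 higher, and OX minus RNAi called 0 higher and 0 lower. Calls over all genes tested were then 12.3%, 27.4% and 5.51%, against 12.9%, 27.6% and 5.94%. Fitting only the groups compared gave 5 lower in OX minus WT, 5 lower in RNAi minus WT and 1 higher in OX minus RNAi. The shares over all genes tested, in either direction, were then 16.5%, 31.2% and 4.71%. Library weights gave 22 higher and 5 lower in OX minus WT and 5 lower in RNAi minus WT, while calls over all genes tested went from 12.9% to 29.0% and from 27.6% to 43.5%. For OX minus RNAi, lower calls were 7 with quantile scaling, 4 with median-ratio scaling and 5 in the added fit of the 9 cold libraries, with either pseudocount. Calls over all genes tested, in either direction, were then 6.72% and 7.05% with these scalings. In the added fit they were 9.14% with a pseudocount of 1 and 8.66% with 0.1. The added fit kept every call except Os03g0286500 (RNAi minus WT, adjusted p = 0.0701 by limma) and Os03g0302800 (OX minus RNAi, adjusted p = 0.0665).

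With single libraries left out, OX minus WT called 3 to 17 higher and 1 to 4 lower, with a median of 0.22 to 0.57. RNAi minus WT called 10 to 18 higher and 2 to 4 lower, with a median of 0.38 to 0.46. OX minus RNAi called 1 to 3 higher and 1 to 4 lower, with a median of −0.315 to 0.011. Over all genes tested, calls in either direction ranged from 5.57% to 16.7%, from 17.5% to 32.8% and from 1.93% to 9.93%, in the same order. The highest share in each comparison was that without WT control replicate 2. Called whichever library was left out were 4 of 15, 12 of 21 and 2 of 5 genes, in the same order. Limits of 1 and 20 FPKM chose 32 genes, limits of 2 and 10 chose 102, and leaving out single libraries gave 49 to 56. Of 2697 results for named genes under alternatives, 2530 kept their side of the threshold, 110 lost it, 57 gained it and 0 reversed. These results include comparisons that were not called in the main fit. Of all 41 calls, named or not, 6 held under every alternative. They were 1 of 15 in OX minus WT, 5 of 21 in RNAi minus WT and 0 of 5 in OX minus RNAi. The call in OX was Os01g0699100. The 5 in RNAi were Os01g0699100, Os01g0905300, Os02g0540700, Os12g0136300 and WRKY76. The pseudocount of 0.1 in the fit of all libraries by itself left 1, 5 and 0 genes called in OX minus WT, RNAi minus WT and OX minus RNAi.

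Same-numbered libraries of the lines compared correlated at −0.026 to 0.189 in their deviations, and differently numbered ones at −0.199 to 0.13. Whether the numbers pair the samples is not settled by these values. With a replicate block, 14 genes were higher in OX minus WT, 17 in RNAi minus WT and 3 in OX minus RNAi. Calls over all genes tested, in either direction, were then 11.4%, 25.5% and 4.87%. Under the block, WRKY76 (adjusted p = 0.0498 by limma) and Os10g0521900 (0.0418) passed in OX minus WT, Os03g0820300 did not pass in OX minus WT (0.0598) or RNAi minus WT (0.0659), and no other named gene changed its call. The planned promoter motif alternative was not run. Unknown absolute depth limits what can be said of levels near 0.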

Other observations

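Outside the rows with a locus ID, 2 of 2931 rows listed as new genes met the same limits. New gene 4135 had group means of 0.344 to 0.777 FPKM in control, and 30.4 FPKM in cold WT, 25.1 in cold OX and 72.4 in cold RNAi. Its lowest WT cold library was replicate 2, at 15.5 FPKM, as for WRKY76. New gene 6409 had group means of 0.704 to 1.76 FPKM in control, and 189 FPKM in cold WT, 222 in cold OX and 141 in cold RNAi.

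Before cold, the traces of transcript of the 52 genes were unevenly spread over libraries. RNAi control replicate 1 was the highest of its group for 42 of the 52 genes (80.8%, against 51.3% of all genes tested), and WT control replicate 3 for 35 (67.3% against 23.7%). RNAi control replicate 2 was the lowest of its group for 39 (75.0% against 43.8%). The median level of the 52 genes was 1.00 FPKM in RNAi control replicate 1 and 0.876 in WT control replicate 3, against 0.170 to 0.597 in the other control libraries.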
